A study of Arabidopsis thaliana and Zea mays with 36 samples.

Results

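The step from drought level DT2 to drought level DT3 was examined in linear RNA of Arabidopsis thaliana rosette leaves. It rests on 4 of the 36 libraries of the study, 2 at DT2 and 2 at DT3, and on 18938 of 27655 genes, those with at least 1 TPM, a transcript's share of the library corrected for its length, in 2 or more of the 10 Arabidopsis linear RNA libraries. All plants were ecotype Col-0, grown at 22 °C with 16 h of light (about 85 µmol per square metre and second) and 8 h of dark. Water was rationed from 21 days after planting, and a library is a pool of leaves from 4 plants. Every library used here came from RNA that was not digested with RNase R. The other 3 groups are the well-watered group (WW) and the higher drought levels DT4 and DT5, with 2 libraries each. The labels call the 2 libraries of a group biological replicates, and each is a single pool. The sources used here do not state the soil moisture held at each level. In whole leaves, fewer cells of a type and less RNA per cell cannot be told apart.

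A leaf that loses water makes abscisic acid (ABA), which inhibits PP2C phosphatases through its receptors and so frees SnRK2 kinases to switch on ABF transcription factors and to close stomata. Late embryogenesis abundant (LEA) proteins and dehydrins accumulate as drying goes on, and photosynthesis genes are turned down. Anthocyanins, red flavonoid pigments made in the cytosol and stored in the vacuole, are a common mark of stressed leaves.

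The DT2 and DT3 libraries were much alike. The correlation of log2(TPM + 1) over genes was 0.988 between the DT2 libraries, 0.986 between the DT3 libraries and from 0.981 to 0.985 between the levels. The number of genes at 1 TPM or more was 17619 and 17640 at DT2 and 17864 and 17885 at DT3. TPM keeps no sequencing depth, so the depth behind each value is unknown. The tissue was checked through markers: Rubisco and light-harvesting transcripts were among the most abundant, 3 of 5 root markers were at 0 in all 4 libraries, and the root markers summed to 0.630 and 0.710 TPM at DT2 and 0.440 and 0.350 TPM at DT3. The floral markers summed to 1.28 and 1.39 TPM at DT2 and 2.35 and 2.96 TPM at DT3, the seed storage markers to 0 in both DT2 libraries and to 0.340 and 0.110 TPM at DT3 with 2 of 4 at 0 throughout, and the 8 guard cell markers to between 44.0 and 57.1 TPM. The part of these markers in the results was not tested.

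Few single genes passed the test between DT2 and DT3. Of 18938 genes 15 were called (0.0792%), 11 higher (0.0581%) and 4 lower (0.0211%) at DT3, at a limma p adjusted by the Benjamini-Hochberg method under 0.05. By contrast 356 genes (1.88%) were called between WW and DT2, 1.47% of all genes higher and 0.412% lower at DT2. Between DT3 and DT4 10144 genes (53.6%) were called, and between DT4 and DT5 8768 (46.3%). Without adjustment 1845 genes had p under 0.05 (9.74%), 1549 higher (8.18%) and 296 lower (1.56%). The 2 DT3 libraries both lay above the 2 DT2 libraries for 7061 genes (37.3%) and both below for 2112 (11.2%). The median gene was higher by 0.10 on the log2(TPM + 1) scale, the scale of every log2 change below, and the central 90% of genes lay between -0.28 and 0.52. After a trimmed-mean (TMM) rescaling of the libraries the median gene was at 0.01, 1 gene was called higher and 2 lower, and the libraries stood apart upward for 4148 genes (21.9%) and downward for 3982 (21%). The genes still called after rescaling were GPT2, AT3G16670 and ATCG00140.

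**Figure D1:**
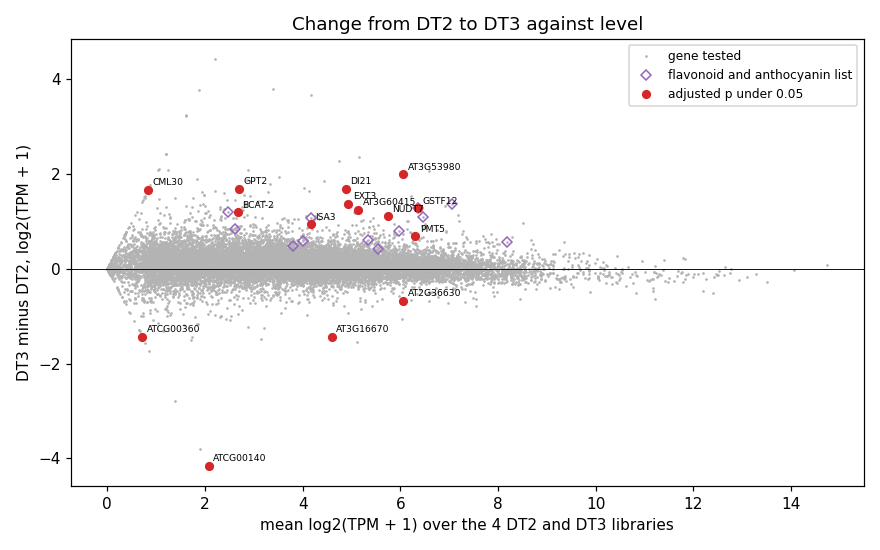
Each point is a gene; the x axis is its mean log2(TPM + 1) over the 4 DT2 and DT3 libraries and the y axis DT3 minus DT2 on the same scale. Red circles are the 15 called genes and open diamonds the 12 flavonoid and anthocyanin genes, all of which lie above 0.

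The calls depend on single libraries. Of the 15 calls, 2 remained without DT2 replicate 1, 1 without DT2 replicate 2, 4 without DT3 replicate 1 and 1 without DT3 replicate 2. ATCG00140 was called in each of these 4 fits. The other 14 calls were each lost in at least 2 of them, with highest adjusted p values from 0.220 for GPT2 to 0.481 for EXT3, AT3G60415 and AT2G36630. No log2 change of a called gene changed sign in these fits.

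The genes that rose included GPT2, ISA3, PMT5 and BCAT-2, which act in metabolism and transport. GPT2 (AT1G61800), which moves glucose 6-phosphate across the plastid envelope, was at 3.21 and 2.06 TPM at DT2 and at 10.3 and 10.8 TPM at DT3. The levels did not overlap, and GPT2 rose by a log2 of 1.69 (SE 0.17, limma adjusted p = 0.0146), then stood at 57.9 and 49.99 TPM at DT4 and 513 and 558 TPM at DT5. ISA3 (AT4G09020), a debranching enzyme of starch breakdown, went from 12.6 and 11.4 TPM to 21.6 and 26.1 TPM (log2 0.93, SE 0.12, adjusted p = 0.0454). PMT5 (AT3G18830), a transporter of polyols and monosaccharides, went from 63.0 and 60.1 TPM to 101 and 97.6 TPM (log2 0.68, SE 0.09, adjusted p = 0.0454). BCAT-2 (AT1G10070), an aminotransferase of branched-chain amino acids that belongs to the sugar starvation list, was at 3.11 and 3.33 TPM at DT2 and 7.98 and 9.31 TPM at DT3 (log2 1.19, SE 0.14, adjusted p = 0.0398). In all 4 of these genes both DT3 pools lay above both DT2 pools, and the smallest of the 4 changes was that of PMT5. Of the 11 sugar starvation genes tested, BCAT-2 was the 1 call, and 7 lay apart upward (63.6%, against 37.3% of all genes) and 1 downward. After rescaling 4 lay apart upward (36.4%, against 21.9%), and the median went from 0.15 to 0.04.

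The largest change among the genes called higher was that of AT3G53980, which was at 33.0 and 31.7 TPM at DT2 and 99.7 and 172 TPM at DT3 (log2 1.99, SE 0.26, adjusted p = 0.0454). Its DT3 pools differed from each other more than its DT2 pools did. DI21 (AT4G15910), named for its induction by drought, went from 13.04 and 18.28 TPM to 51.8 and 52.1 TPM (log2 1.69, SE 0.21, adjusted p = 0.0398), and reached 1703 and 1477 TPM at DT4. EXT3 (AT1G21310), an extensin that cross-links into the cell wall, went from 16.5 and 19.7 TPM to 53.8 and 42.5 TPM (log2 1.36, SE 0.19, adjusted p = 0.0454), and AT3G60415 from 20.6 and 23.2 TPM to 48.5 and 57.7 TPM (log2 1.24, SE 0.17). CML30 (AT2G15680), a calmodulin-like calcium sensor, was listed at 1.78 and 2.62 TPM at DT3 and at 0 in the other 8 libraries. CML30, EXT3, GSTF12 and BCAT-2 each overlap 1 other annotated gene, and the sources used here do not state whether reads were counted by strand, so the reads of such pairs may not be told apart. The gene that overlaps EXT3, AT1G21313, was at 7.87 and 8.14 TPM at DT2 and at 34.5 and 23.3 TPM at DT3 (log2 1.71, limma adjusted p = 0.0569).

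**Figure D2:**
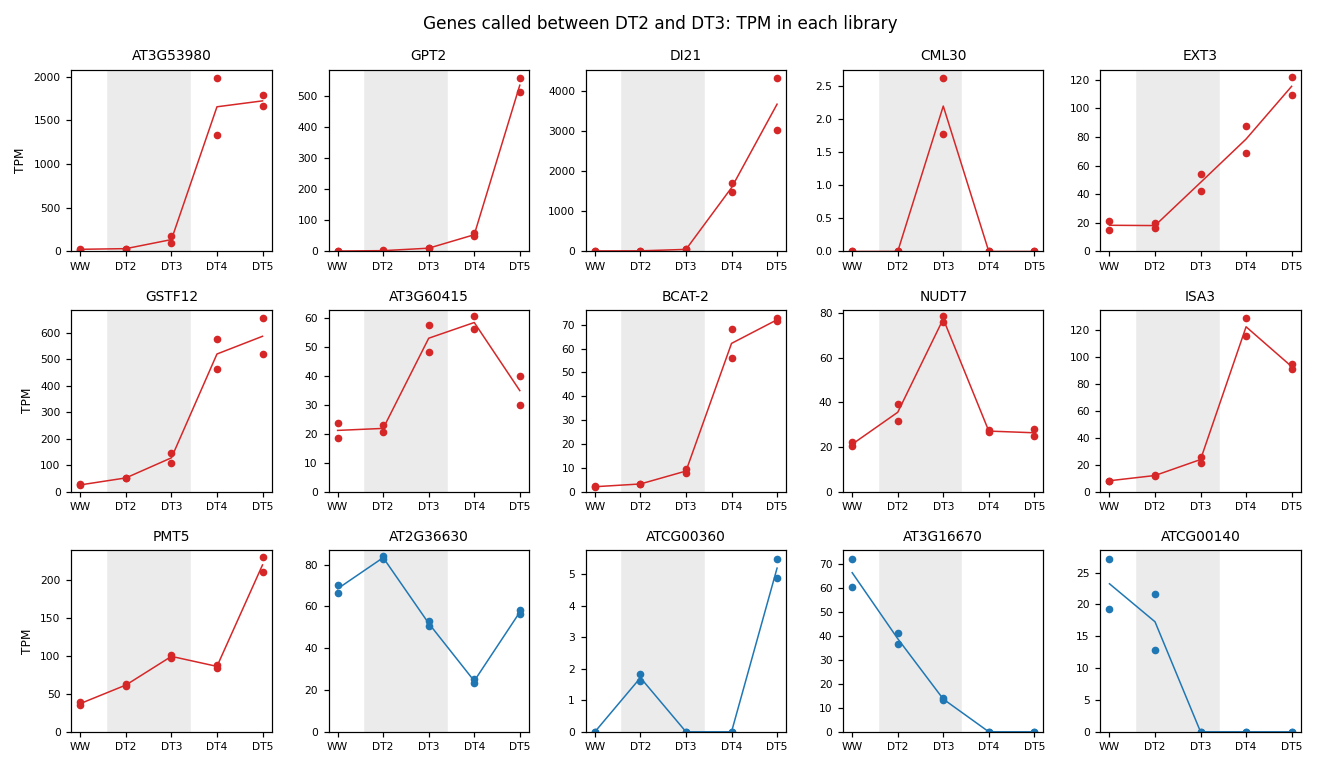
TPM (y axis, from 0) in each library of the 5 groups (x axis) for the 15 genes called between DT2 and DT3; points are libraries, lines join the group means, red marks genes higher and blue genes lower at DT3, and the grey band covers the step. GPT2 and DI21 go on rising to DT5, whereas NUDT7 is at 78.5 and 76.2 TPM at DT3 and back at 26.6 and 27.7 TPM at DT4.

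NUDT7 (AT4G12720), a hydrolase of ADP-ribose and NADH that restrains immune signalling, was at 31.8 and 39.3 TPM at DT2 and at 78.5 and 76.2 TPM at DT3. It rose by a log2 of 1.11 (SE 0.13, limma adjusted p = 0.0285). At DT4 NUDT7 was at 26.6 and 27.7 TPM, lower than at DT3 by the test of that comparison (adjusted p = 2.27e-05), which shares the DT3 libraries. Its change from DT2 to DT3 differed from that between DT4 and DT5 (limma adjusted p = 0.00125). That difference contains the step by which NUDT7 was picked.

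The 4 genes called lower were 2 loci coded as plastid genes and 2 nuclear genes without a symbol. AT3G16670 was at 41.2 and 36.5 TPM at DT2 and at 14.0 and 13.3 TPM at DT3, and fell by 1.44 on the log2 scale (SE 0.16, limma adjusted p = 0.0256). It was already lower at DT2 than the 60.5 and 72.3 TPM of WW and was listed at 0 at DT4 and DT5. AT2G36630 fell by 0.67 (SE 0.09, adjusted p = 0.0457), from 83.9 and 82.7 TPM to 53.0 and 50.8 TPM. The plastid locus ATCG00140 was listed at 21.7 and 12.9 TPM at DT2 and at 0 at DT3, DT4 and DT5 (adjusted p = 4.50e-04). The plastid locus ATCG00360 was listed at 1.61 and 1.82 TPM at DT2, at 0 in WW, DT3 and DT4 and at 5.49 and 4.89 TPM at DT5 (adjusted p = 0.0454). Most plastid loci did not share this pattern. Of 57 tested, 12 lay apart upward (21.1%) and 8 downward (14%), against 37.3% and 11.2% of all genes. Their median was -0.05. A value of 0 in the deposited table can be a failed estimate: 6 tested genes were at 0 in both DT2 libraries and at 1 TPM or more in both DT3 libraries, and 4 the other way round.

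Genes of flavonoid and anthocyanin synthesis had higher values at DT3 in every member, although 1 of the 12 tested passed the test. The call was that of GSTF12 (AT5G17220), also known as TT19, a glutathione S-transferase that carries anthocyanins to the vacuole. It was at 51.7 and 51.8 TPM at DT2 and at 108 and 147 TPM at DT3 (log2 1.27, SE 0.17, limma adjusted p = 0.0454). In 11 of the 12 genes both DT3 libraries lay above both DT2 libraries, against 37.3% of all genes, and in 9 of 12 after rescaling, against 21.9%. Without adjustment 10 of 12 had p under 0.05, against 8.18% of all genes. The list median was 0.81, against 0.10 for all genes.

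The genes late in the pathway differed most. DFR (AT5G42800), dihydroflavonol reductase, was at 76.7 and 88.1 TPM at DT2 and at 204 and 222 TPM at DT3 (log2 1.36, SE 0.20, limma adjusted p = 0.0519). LDOX (AT4G22880), the anthocyanidin synthase, was at 51.1 and 68.9 TPM and then at 120 and 134 TPM (log2 1.09, SE 0.20, adjusted p = 0.123), and UF3GT (AT5G54060), a glycosyltransferase of anthocyanins, at 10.6 and 12.5 TPM and then at 24.6 and 26.0 TPM (log2 1.07, SE 0.19, adjusted p = 0.117). Their ranges were clear of each other, but none of the 3 passed the threshold. TT8, a bHLH regulator of the late genes, was at 2.45 and 2.91 TPM and then at 6.92 and 7.90 TPM (log2 1.19).

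The early enzymes differed less. Chalcone synthase (CHS) was at 252 and 225 TPM at DT2 and at 283 and 438 TPM at DT3 (log2 0.56), chalcone isomerase (CHI, symbol TT5) at 29.7 and 34.1 TPM and then 46.1 and 51.6 TPM (log2 0.60), and F3H, flavanone 3-hydroxylase, at 43.9 and 49.8 TPM and then 68.0 and 97.1 TPM (log2 0.79). The MYB regulator PAP1 was at 37.3 and 41.2 TPM and then at 42.5 and 65.1 TPM (log2 0.42). Its relative PAP2 was the member whose libraries overlapped, at 6.18 and 1.93 TPM and then at 4.54 and 11.2 TPM. For CHS, PAP1 and PAP2 the second DT3 pool was the higher of the pair by a wide margin. At DT4 all 12 genes were called higher than in WW, against 48.3% of all genes tested. That comparison shares no library with the step.

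**Figure D3:**
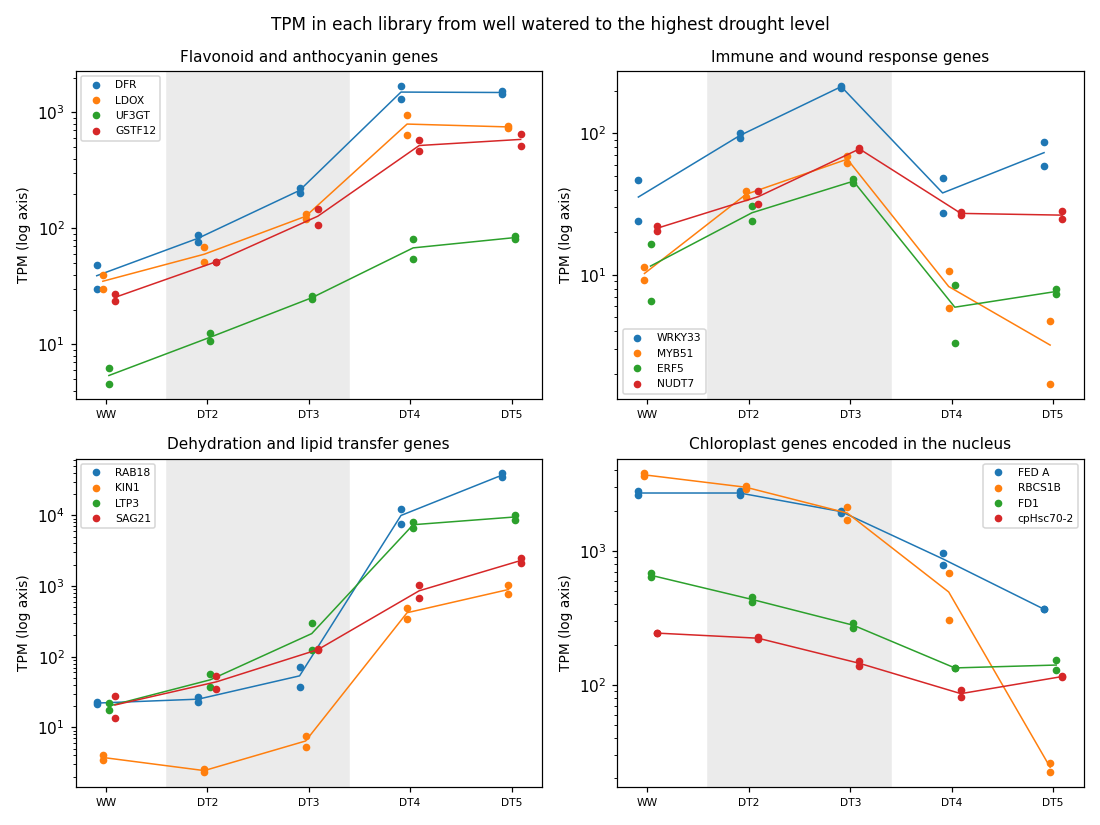
TPM on a log axis in each library (points) and as group means (lines) over the 5 groups, for 4 genes each of 4 kinds; the grey band covers DT2 and DT3. The anthocyanin genes stand higher at DT3 than DT2 and higher again at DT4, the immune and wound genes are highest at DT3 and low at DT4, RAB18 is at 36.6 and 70.3 TPM at DT3 against 12416 and 7534 TPM at DT4, and FED A is at 2783 and 2635 TPM at DT2 and at 1998 and 1937 TPM at DT3.

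Genes of wounding, touch and calcium response lay apart upward from DT2 to DT3 in 7 of 12 members (58.3%, against 37.3% of all genes). Most were called lower at DT4 than at DT3, although none passed the test for the step. WRKY33 (AT2G38470), a transcription factor of defence against fungi, was at 92.2 and 100 TPM at DT2 and at 216 and 210 TPM at DT3 (log2 1.14, SE 0.32, limma adjusted p = 0.336), then at 27.4 and 48.2 TPM at DT4. MYB51 (AT1G18570), a regulator of indole glucosinolates, was at 35.2 and 38.8 TPM, then 69.5 and 61.5 TPM, then 5.86 and 10.7 TPM. ERF5 (AT5G47230), an ethylene response factor, was at 24.1 and 30.8 TPM, then 44.5 and 47.2 TPM, then 3.32 and 8.49 TPM. The DT3 pools of these genes were clear of the DT2 pools and of the DT4 pools. TCH3, a calmodulin-like gene induced by touch, was at 235 and 286 TPM at DT2, 542 and 470 TPM at DT3 and 7.74 and 34.7 TPM at DT4.

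Of the 12 touch, wound and calcium genes 7 lay apart upward (58.3%) and 1 downward (TCH2), against 37.3% and 11.2% of all genes. The counts were the same after rescaling, against 21.9% and 21% of all genes. The median was 0.51. Between DT3 and DT4 10 of the 12 were called lower and 0 higher (20% lower and 33.6% higher among all genes tested). That comparison shares the DT3 libraries. In the uncorrected test of the step 3 of 12 had p under 0.05, all higher, against 8.18% of all genes. Of 15 salicylate and immunity genes 10 lay apart upward (66.7%, against 37.3% of all genes) and 0 downward. After rescaling 9 lay apart upward (60%, against 21.9%) and 1 downward, and the median was 0.30 before it. At DT4 6 of the 15 were called lower than at DT3 and 0 higher, against the same 20% and 33.6% of all genes. The DT3 libraries are again shared, and the median was -0.27. SARD1 (AT1G73805) and CBP60G (AT5G26920), which switch on salicylate synthesis, were at 3.75 and 5.38 TPM against 10.4 and 8.32 TPM and at 18.5 and 19.5 TPM against 28.7 and 30.0 TPM. EDS1 (AT3G48090) and PAD4 (AT3G52430), partner proteins of immune signalling, were at 15.4 and 17.2 TPM against 23.3 and 22.5 TPM and at 11.1 and 12.7 TPM against 17.9 and 16.2 TPM. The 4 genes had log2 changes from 0.47 to 0.90 and adjusted p values from 0.405 to 0.512.

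Of 21 jasmonate genes tested, 14 lay apart upward (66.7%, against 37.3% of all genes) and 0 downward, and after rescaling 10 (47.6%, against 21.9%) and 0. At DT4 4 of the 21 were called lower than at DT3, close to the 20% of all genes, and 2 higher, against 33.6%. The median of the step was 0.28, with 0 calls. Without adjustment 4 genes had p under 0.05, all higher, against 8.18% of all genes. JAZ1 (AT1G19180), a repressor of jasmonate responses that jasmonate itself induces, was at 38.4 TPM in both DT2 libraries and at 54.2 and 57.2 TPM at DT3 (log2 0.52, SE 0.12, limma adjusted p = 0.203). MYC2 (AT1G32640), the transcription factor that JAZ proteins hold in check, was at 16.6 and 19.3 TPM and then at 27.3 and 24.6 TPM, below its 65.0 and 49.98 TPM in WW. JAZ5, another JAZ repressor, was likewise at 5.77 and 5.88 TPM and then at 9.00 and 8.14 TPM, below 15.7 and 13.01 TPM in WW. All 9 cell division genes had a positive log2 change, from 0.20 to 0.55, beside a median of 0.10 for all genes. Of the 9, 7 lay apart upward (77.8%, against 37.3% of all genes), and 5 after rescaling (55.6%, against 21.9%). The mitotic cyclin CYCB1;1 was at 1.48 and 1.2 TPM at DT2 and at 2.17 and 2.70 TPM at DT3.

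Several of these genes were called when the spread was taken from the 4 DT2 and DT3 libraries alone. In that fit 49 genes were higher and 9 lower, 12 of them among the 15 calls of the fit over 10 libraries. It called 4 flavonoid genes (GSTF12, DFR, UF3GT and LDOX), 3 of the touch and wound list (WRKY33, TCH3 and MYB51), the senescence gene SAG21 and BCAT-2, all 9 higher. WRKY33 had an SE of 0.08 and an adjusted p of 0.0114 there. Its smaller SE there leaves out the other groups, in which its 2 libraries differed more, as with 24.1 and 46.6 TPM in WW. That fit took only genes with at least 1 TPM in 2 or more of the 4 libraries. With the 18938 genes of the 10-library filter kept instead, 0 genes were called by limma and 2674 had an unadjusted p under 0.05. Of those 18938 genes 83 were at 0 in all 4 libraries. In the fit with the 4-library filter 2742 had an unadjusted p under 0.05. The 2 fits hold different sets of genes, and after adjustment they called 58 and 0. Why the calls differ was not tested.

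Dehydration and LEA genes had small differences between DT2 and DT3 and large ones at DT4. Of 20 dehydration and LEA genes tested 0 were called by limma. Without adjustment 5 had p under 0.05, all higher, against 8.18% of all genes. The libraries lay apart upward for 10 (50%, against 37.3%) and downward for 0, and for 8 (40%, against 21.9%) and 2 after rescaling. The median was 0.25. KIN1 (AT5G15960), a small hydrophilic protein of cold and drought, was at 2.54 and 2.34 TPM at DT2 and at 5.19 and 7.62 TPM at DT3 (log2 1.09, SE 0.21, limma adjusted p = 0.136), and at 496 and 342 TPM at DT4. The dehydrin gene RAB18 (AT5G66400) was at 23.2 and 26.9 TPM and then at 36.6 and 70.3 TPM (log2 0.997, SE 0.28, adjusted p = 0.336), and at 12416 and 7534 TPM at DT4. The second DT3 pool was the higher in both, and RD29A (symbol LTI78) had the same order at 40.7 and 74.5 TPM, after 31.8 and 37.8 TPM at DT2. LEA4-5, an unstructured LEA protein, was at 2.33 and 1.51 TPM and then at 2.43 and 2.37 TPM. At DT4 18 of the 20 genes were called higher than in WW, against 48.3% of all genes tested. That comparison shares no library with the step.

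Of 8 ABA kinases and ABF factors none was called, but 7 lay apart upward (87.5%, against 37.3% of all genes) and 0 downward. After rescaling 6 lay apart upward (75%, against 21.9%), and the log2 changes ran from 0.17 to 0.46. SNRK2.3 (AT5G66880), an ABA-activated kinase, was at 38.6 and 40.5 TPM at DT2 and at 51.4 and 58.2 TPM at DT3 (log2 0.46, SE 0.15, limma adjusted p = 0.395), and ABF2 (AT1G45249) at 27.1 and 29.9 TPM and then 36.7 and 38.6 TPM. Of 9 PP2C genes 4 lay apart upward, close to the 37.3% of all genes, and 1 after rescaling. The phosphatase gene HAI2 (AT1G07430) was at 4.1 and 2.22 TPM and then at 3.88 and 7.99 TPM, so that its levels overlapped. Of the 8 ABA receptor genes 5 lay apart upward (62.5%) and 1 downward (12.5%), against 37.3% and 11.2% of all genes. After rescaling these counts were 1 (12.5%) and 2 (25%), against 21.9% and 21%.

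A few lipid transfer and senescence genes had large differences with wide spread between pools, while their list medians lay close to that of all genes. Of 11 wax and lipid transfer genes 4 lay apart upward (36.4%, against 37.3%) and 1 downward, and after rescaling 3 and 4, with a median of 0.10. Of 13 senescence genes 7 lay apart upward (53.8%) and 1 downward (7.69%), against 37.3% and 11.2% of all genes. After rescaling these counts were 4 (30.8%) and 3 (23.1%), against 21.9% and 21%. LTP3 (AT5G59320) was at 37.1 and 57.1 TPM at DT2 and at 126 and 298 TPM at DT3 (log2 2.05, SE 0.34, limma adjusted p = 0.0936). LTP4 (AT5G59310) was at 9.19 and 23.3 TPM and then at 54.3 and 116 TPM (log2 2.35, SE 0.43, adjusted p = 0.120). Both encode secreted proteins that bind lipids, and the 2 DT3 pools of each were far apart. SAG29 (AT5G13170), a SWEET sugar exporter, was at 2.78 and 8.07 TPM and then at 15.3 and 29.5 TPM (log2 1.93, SE 0.38, adjusted p = 0.135). SAG21 (AT4G02380), a small LEA protein of mitochondria, was at 34.6 and 53.5 TPM and then at 129 and 123 TPM (log2 1.52, SE 0.31, adjusted p = 0.148). NYC1, which starts chlorophyll b breakdown, was at 68.1 and 62.1 TPM and then at 49.9 and 58.4 TPM, and the 13 senescence genes had a median of 0.15.

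Photosynthesis genes had slightly lower values at DT3 in most members. None tested in the lists of light harvesting, photosystems and carbon fixation passed the test. Without adjustment 0, 1 and 1 had p under 0.05 and a lower level, against 1.56% of all genes. The libraries lay apart downward for 12 of 20 light-harvesting genes, 22 of 25 photosystem and electron transport genes and 16 of 17 carbon fixation genes, against 11.2% of all genes, and upward for 0. After rescaling the counts were 18, 24 and 17, against 21%. The medians were -0.11, -0.15 and -0.19. FED A (AT1G60950), the main leaf ferredoxin, which passes electrons on from photosystem I, was at 2783 and 2635 TPM at DT2 and at 1998 and 1937 TPM at DT3 (log2 -0.46, SE 0.12, limma adjusted p = 0.287). FD1 (AT1G10960), the second leaf ferredoxin, was at 457 and 412 TPM and then at 289 and 268 TPM (log2 -0.64, SE 0.11, adjusted p = 0.0936).

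The Rubisco small subunit gene RBCS1B (AT5G38430) was at 3069 and 2915 TPM and then at 2131 and 1707 TPM (log2 -0.65, SE 0.29, adjusted p = 0.511), and RBCS1A at 13184 and 12672 TPM and then at 10860 and 10403 TPM. The carbonic anhydrase gene CA1 was at 2231 and 2077 TPM and then at 1594 and 1428 TPM. RBCS and LHCB genes have near-identical copies that share reads, so their single values are uncertain. Light-harvesting genes held closest to their DT2 levels, and LHCA4 was at 6964 and 6917 TPM and then at 6803 and 7075 TPM. Among the genes nearest to a call on the lower side were 2 chloroplast chaperones. The first, cpHsc70-2 (AT5G49910), an Hsp70 of the stroma, was at 226 and 220 TPM and then at 150 and 139 TPM (log2 -0.62, SE 0.09, adjusted p = 0.0519). The second, Cpn60beta2 (AT3G13470), a chaperonin subunit, was at 121 TPM in both libraries and then at 79.4 and 71.4 TPM (log2 -0.67, SE 0.11, adjusted p = 0.0999). The rule for named genes also took FD1, AT2G27420, AT3G09440, AT4G33666, AT2G05540 and SQP1 there, with limma adjusted p from 0.0936 to 0.135. FD1, cpHsc70-2 and Cpn60beta2 each overlap 1 other annotated gene, with the same limit on telling reads apart. At DT4 all 20 light-harvesting, 25 photosystem and 17 carbon fixation genes were called lower than in WW, against 16.4% of all genes tested. That comparison shares no library with the step.

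**Figure D4:**
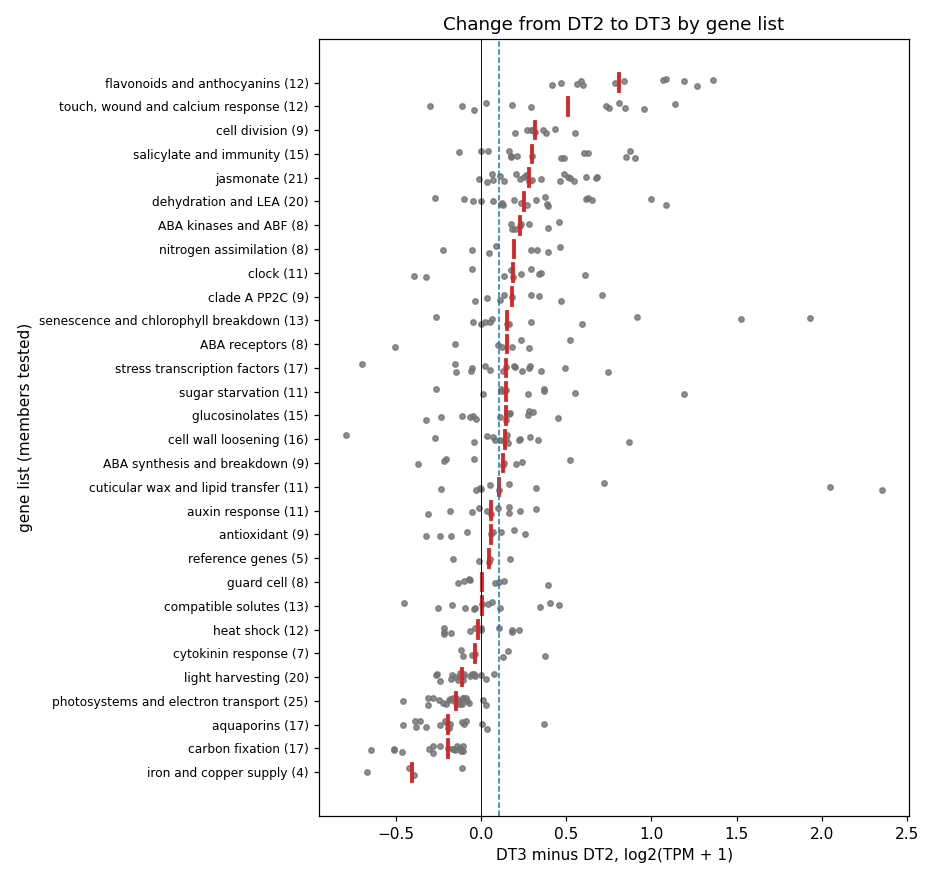
DT3 minus DT2 on the log2(TPM + 1) scale (x axis) for each tested member (grey points) of the gene lists with at least 4 members tested (y axis, number in brackets); red bars are list medians, the dashed line the median of all genes tested (0.10). The flavonoid list is highest at 0.81, and the carbon fixation list lies at -0.19.

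The 3 ferritin genes tested, whose proteins store iron in plastids, had lower values at DT3 without passing the test. FER3 (AT3G56090) was at 51.4 and 44.8 TPM at DT2 and at 32.6 and 27.2 TPM at DT3 (log2 -0.67, SE 0.15, limma adjusted p = 0.194), FER4 (AT2G40300) at 50.1 and 59.2 TPM and then 45.5 and 35.8 TPM, and FER1 (AT5G01600) at 640 and 672 TPM and then 485 and 513 TPM. Their adjusted p values were 0.194, 0.424 and 0.655, and the levels of all 3 were apart. The fourth member tested of the iron and copper list, COPT2, overlapped, so that 3 of 4 lay apart downward, against 11.2% of all genes. Of 17 aquaporins 8 lay apart downward (47.1%) and 2 upward, 11 (64.7%, against 21%) and 1 after rescaling, with a median of -0.19. GAMMA-TIP (AT2G36830), a water channel of the vacuole membrane, was at 366 and 421 TPM and then at 373 and 264 TPM, so that its levels overlapped.

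Heat shock genes showed no shared shift. Of 12 tested 0 lay apart upward and 2 downward (16.7%), against 37.3% and 11.2% of all genes, and the median was -0.02. HSP70 (AT3G12580), a cytosolic chaperone, was at 35.8 and 37.5 TPM at DT2 and at 30.0 and 32.7 TPM at DT3, and at 360 and 220 TPM at DT4. Of 11 clock genes 8 lay apart upward (72.7%) and 3 downward (27.3%). After rescaling these counts were 6 (54.5%) and 3 (27.3%), against 21.9% and 21% of all genes. The morning gene PRR9 (AT2G46790) was at 46.1 and 39.9 TPM and then at 31.6 and 33.0 TPM. LHY was at 79.1 and 71.6 TPM and then at 89.0 and 88.3 TPM. The sources used here do not state when in the day leaves were taken. The compatible solute gene P5CS1 (AT2G39800), the entry enzyme of proline synthesis, was at 149 and 268 TPM at DT2 and at 259 and 249 TPM at DT3, and its DT2 pools differed more than the levels. GolS2 (AT1G56600), of galactinol synthesis, was at 99.8 and 120 TPM and then at 152 and 150 TPM (log2 0.46, SE 0.17, limma adjusted p = 0.444). The 13 compatible solute genes had a median of 0.01, with 2 apart upward and 2 downward (15.4% each, against 37.3% and 11.2% of all genes). After rescaling 2 lay apart upward and 4 downward (15.4% and 30.8%, against 21.9% and 21%).

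None of the members of the remaining lists was called. Against 37.3% upward and 11.2% downward for all genes, these lists had mostly smaller shares apart upward. Of 17 stress transcription factors 6 lay apart upward and 3 downward, of 9 genes of ABA synthesis and breakdown 3 and 1, and of 16 cell wall loosening genes 4 and 1. Of 15 glucosinolate genes 1 lay apart upward and 2 downward, of 9 antioxidant genes 2 and 2, and of 8 nitrogen assimilation genes 3 and 1. Of 11 auxin and 7 cytokinin response genes 2 and 1 lay apart upward and 0 downward. Of 8 guard cell genes 1 lay apart upward, and of 5 reference genes 1 lay apart downward, with medians of 0.01 and 0.04. Of 38 mitochondrial loci 6 lay apart upward and 6 downward. The upward shares ran from 0% for the reference genes and 6.67% for the glucosinolate genes to 37.5% for the nitrogen assimilation genes. After rescaling the upward and downward counts were 4 and 3 for stress transcription factors and 2 and 4 for ABA synthesis and breakdown. They were 4 and 2 for cell wall loosening, 0 and 4 for glucosinolate, 2 and 3 for antioxidant and 2 and 1 for nitrogen assimilation genes. For auxin, cytokinin, guard cell and reference genes they were 1 and 2, 0 and 1, 1 and 0, and 0 and 2. Of all genes 21.9% then lay apart upward and 21% downward.

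The genes of the step were followed into a comparison that shares no library with it, DT4 against WW. Of the 11 genes called higher at DT3, 10 were higher at DT4 than in WW and 0 lower, with CML30 at 0 in both, against 48.3% and 16.4% of all genes tested (64.7% in both directions). Their median change at DT4 was 3.76, with CML30 entered at 0. The median of all genes tested was 0.41 in that comparison, and the shares given for DT4 against WW are without rescaling. Of the 4 called lower 3 were lower at DT4 and 0 higher, with ATCG00360 at 0 in both. Among the 1549 genes with an unadjusted p under 0.05 and a higher level at DT3, 74.8% were higher at DT4 and 5.42% lower, and among the 296 lower at DT3, 61.8% were lower at DT4 and 11.1% higher. DT3 and DT2 were thus ordered like DT4 and WW for most of these genes, but not for all. NUDT7 was higher at DT4 than in WW by 0.34 (SE 0.13, limma adjusted p = 0.0377), a smaller difference than its 1.11 across the step. Some lists with positive medians at the step went the other way at DT4 against WW. Of 9 cell division genes 9 were called lower there, and of 21 jasmonate genes 10 lower and 2 higher. Of 12 touch, wound and calcium genes 5 were called lower and 0 higher. Of 15 salicylate and immunity genes 2 were called lower and 1 higher.

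**Figure D5:**
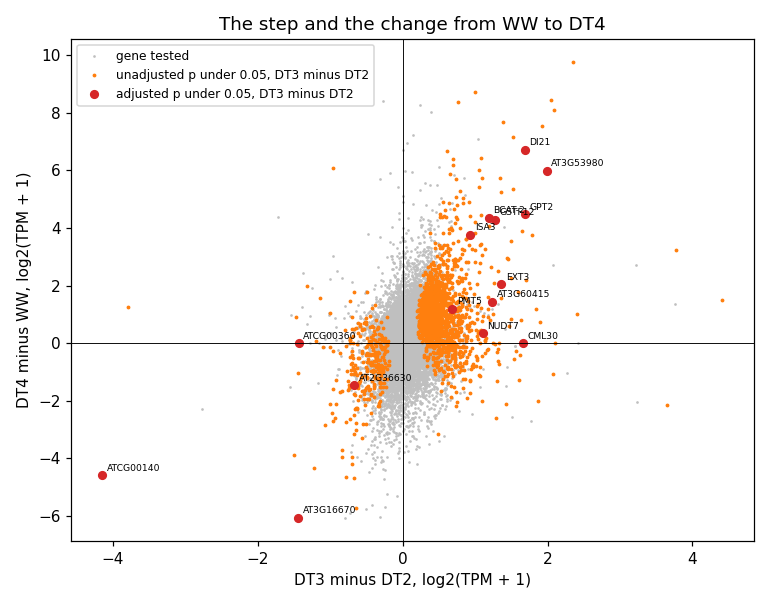
DT3 minus DT2 (x axis) against DT4 minus WW (y axis), both on the log2(TPM + 1) scale, for each gene tested; orange points have an unadjusted p under 0.05 and red points are called across the step. Of the 11 genes called higher, 10 lie above 0 on the y axis with calls there too, and CML30 lies at 0.

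The step was compared with that from DT4 to DT5, which shares no library with it. The 2 steps differed for 6160 of 18938 genes (32.5%) by the limma test of the difference, 24.4% with the more positive log2 change in the step from DT2 to DT3 and 8.09% with the more negative. The difference contains the step by which the called genes were picked, so their share of such calls, 10 of 11 higher and 4 of 4 lower, is a description and is not read against that of all genes. The gene without such a call was DI21, which rose in both steps (adjusted p of the difference = 0.226). GPT2 rose by 1.69 from DT2 to DT3 and by 3.29 from DT4 to DT5, and the difference passed the test. Of the 11, 4 rose again from DT4 to DT5 and 2 fell, ISA3 and AT3G60415, against 16% and 30.3% of all genes. AT3G16670 and ATCG00140 were at 0 at both DT4 and DT5, so that for them the test compares a change with its absence.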

How the data were processed

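Linear RNA was deposited as TPM of each transcript, as the file headers state. The submitters' processing notes name BWA, RSEM, edgeR and the build TAIR10, with no role or version. Columns carry a group and a number, samples a group and a letter, so columns were assigned to groups only. The header line holds 1 extra cell, which names the unit and was taken to head no column. TPM of 48359 transcripts were summed to 27655 genes. Values entered limma 3.58.1 (R 4.3.3; two-sided moderated test with a mean-variance trend) as log2(TPM + 1), with all 10 libraries in one fit of 5 groups, and p-values were adjusted over 18938 genes with 1 TPM or more in 2 libraries; a p under 0.05 was called. SE are those of the fit, with 5 residual and 4.8 prior degrees of freedom. The fit was tested on simulated data. Symbols came from RefSeq (TAIR10.1; 18843 of the tested loci matched). P-values set a change against the spread between pools of the same group, taken over all 5 groups and moderated by the trend.

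The 404 genes of 33 lists, the step itself and the tests were chosen with earlier results of these data known. The rule for named genes took per direction the 12 largest called changes with levels apart, filled by the smallest p, the 4 members of each list with the smallest adjusted p, called members that go against their list, and genes whose steps have opposite signs. TCH3, TCH2, AT1G21313,  LEA4-5, LTI78, TT8, CHS, CHI, F3H, PAP1, PAP2, RBCS1A, CA1, LHCA4 and LHY were named after their values were seen. The rule gave 144 genes, each followed through the alternatives. Alternatives were another pseudocount (0.1), other filters, TMM rescaling, fewer libraries, a block for the column number and leaving out each library. Figures were drawn with matplotlib under Python.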

Additional observations from a re-analysis of the deposited data

Results flagged for a closer look

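In 4 of the genes called between DT2 and DT3 the step from DT4 to DT5 went the other way. Both steps and the difference between them were called by limma. The genes were picked by these calls, so the p values of the difference are a description and no separate support. ISA3 rose from DT2 to DT3 and went from 129 and 116 TPM at DT4 to 91.1 and 94.5 TPM at DT5 (log2 -0.39, adjusted p = 0.0243; difference of the steps, adjusted p = 5.39e-04). AT3G60415 rose in the first step and changed by -0.74 in the second (adjusted p of the difference = 3.69e-04). AT2G36630 fell in the first step and rose in the second, from 23.2 and 25.4 TPM to 58.2 and 56.2 TPM (adjusted p of the difference = 7.59e-05). ATCG00360 was listed above 0 at DT2 and DT5 and at 0 in the other 6 libraries (adjusted p of the difference = 7.23e-05).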

How the results depend on the processing

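Against 15 genes, 11 higher and 4 lower, a pseudocount of 0.1 gave 4 (3 and 1), no filter on low values 4 (2 and 2), TMM rescaling 3 (1 and 2), and the fit of the DT2 and DT3 libraries alone 58 (49 and 9). With the gene filter of the 10 libraries kept, an alternative chosen after seeing the data, that fit gave 0, 0 and 0 by limma. In it 2674 genes had an unadjusted p under 0.05. Without the DT4 and DT5 libraries, also chosen after seeing the data, 24 genes were called, 9 of them lower. Leaving out 1 library gave 1 to 10 genes, 0 to 9 higher and 1 lower. The filter on the DT2 and DT3 libraries gave 21 (16 and 5). The cause was not tested. The median change of all genes was 0.102, 0.0790 without a filter, 0.00715 after rescaling and 0.0820 to 0.116 with 1 library left out.

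Column numbers did not pair the samples: deviations of equal-numbered DT2 and DT3 libraries correlated at -0.16, and other pairs of groups between -0.09 and 0.07. With the replicate block 3 genes were called, 2 higher and 1 lower. A crossed pairing of DT2 and DT3, chosen after seeing the data, also gave 3 calls, 2 higher and 1 lower. Of 30 lists, the median moved by more than a yardstick in 18 after TMM rescaling and in 11 to 15 with 1 library left out. The yardstick was the size of the list's median log2 difference between the DT3 pools, divided by the square root of 2. It uses no DT2 library, and differences of opposite sign cancel in it. For the photosystem list that median difference was 0.004, so that small moves were counted. With 1 library left out the list median ran from 0.60 to 1.07 for the flavonoid list and from 0.42 to 0.59 for the touch and wound list. For carbon fixation it ran from -0.26 to -0.16. The medians of 17 of the 30 lists kept their sign in every setting run. The step difference gave 4182 to 6160 genes over all settings, and the DT4 results moved by at most 1 gene.

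No called gene reversed. Among uncalled named genes, rescaling reversed FMA (-0.0221), AT4G34270 (-0.0530) and PP2AA3 (-0.0594). With 1 library left out, 11 uncalled genes had changes on both sides of 0, or at 0: P5CS1 from -0.0777 to 0.76, ALMT12 from -0.34 to 0.0656, KAT1 from -0.23 to 0.0311, COPT2 from -0.39 to 0.17, RR5 from -0.0893 to 0.34, AT4G34270 from -0.0289 to 0.13, FMA from -0.0772 to 0.235, PP2AA3 from -0.0144 to 0.10, AG from -0.0350 to 0.55, IAA5 from -1.02 to 0.39 and OLEO1 from 0 to 0.15. TPM keeps no depth, so no counting error could be given.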
